A study of Caenorhabditis elegans with 2 samples.

Results

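The genes described are 10 Caenorhabditis elegans genes that build the eggshell or act at egg activation, chosen by name, of 19973 nuclear protein-coding genes in all. They are cpg-1, cpg-2, cpg-3, cbd-1, chs-1, egg-1, egg-2, egg-3, perm-2 and perm-4. For each gene the summits, which are the highest points of the deposited peaks, were taken from the gene body and 1000 bp on either side. This gave 42 summits of 30000 in the list made from pooled reads, 44 of 30000 in replicate 1 and 36 of 27106 in replicate 2. A thresholded list of 732 peaks, which the authors derived from these lists, held 4 of the 42. AMA-1, the largest subunit of RNA polymerase II, was immunoprecipitated from whole young adult worms of mixed sex, and the DNA was sequenced. Both samples, biological replicates of 1 group, were of strain YL503, which is unc-119(ed3) and carries the insertion vrIs110. This insertion carries AMA-1 with GFP and FLAG tags at its C-terminus, driven by the pie-1 promoter, which is active in the germline, and followed by the ama-1 3' UTR, beside a wild-type unc-119. The age is given as unknown and the antibody as ama-1, without saying whether the tag or the protein was bound. The control library was not used here. There is no second condition, so the values below are a description with no test, set beside all protein-coding genes.

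The eggshell of C. elegans is laid down around the egg at fertilization, in layers. The vitelline layer on the oocyte surface becomes the outermost one, chitin lies under it, and chondroitin proteoglycans form the layer below, with a lipid-rich permeability barrier inside. Much of the material is made in the oocyte and held in cortical granules that empty at egg activation. The mRNAs for these proteins are made in the germline, and RNA polymerase II is known to be dense near the ends of many transcribed genes as well as at their starts.

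In the pooled list the strongest AMA-1 peaks of the eggshell genes lay at the ends of cpg-2, cbd-1 and cpg-1, while perm-4 had no summit. A pooled summit was present at 9 of the 10 genes, against 56.4% of all nuclear protein-coding genes. With replicate 1 alone it was 10 of 10 (61.8% of all genes) and with replicate 2 alone 9 of 10 (65.3%). In the thresholded list it was 3 of 10, against 5.20% of all genes. Among the 732 highest-signal peaks of replicate 1 it was 2 of 10 (cpg-2 and cbd-1, 5.41% of all genes), and among those of replicate 2 it was cbd-1 alone (4.87%). Each signal is the authors' own value for a peak and is used only to rank or describe peaks within its list, where rank 1 is the highest. The ranks count mitochondrial peaks too, which are 28 in the pooled list and in each replicate list. The thresholded 732 include 26 of them. The lists give no read counts, so the depth is unknown. In whole worms, more cells with the polymerase on a gene and more polymerase per cell cannot be told apart.

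The summits were also denser along most of these genes. They numbered 4.2 per gene in the pooled list, against 1.92 over all genes. The median gene length was 2045.5 bp against 2027 bp, but the longest members, cbd-1 (4637 bp) and chs-1 (5062 bp), held 10 pooled summits each. Per kb of gene and flanks the rate was 0.898 against 0.367 in the pooled list. It was 0.941 against 0.361 in replicate 1 and 0.77 against 0.323 in replicate 2. For single genes, the pooled rate was below 0.367 at egg-2 (0.246), perm-2 (0.245) and perm-4 (0). At the others it was 0.754 to 1.51, and the median was 0.942 against 0.225 over all genes. Among the genes with a summit, the highest one had a median rank of 2335 for the 9 eggshell genes, against 6286 over 11270 genes. In replicate 1 the medians were 2747 against 7124, and in replicate 2 they were 1633 against 7541. Of the 42 summits, 22 had a −log10 q-value of 2 or more, against 25.1% of all pooled summits. The pooled list is named by the authors as holding peaks and background.

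**Figure D1:**
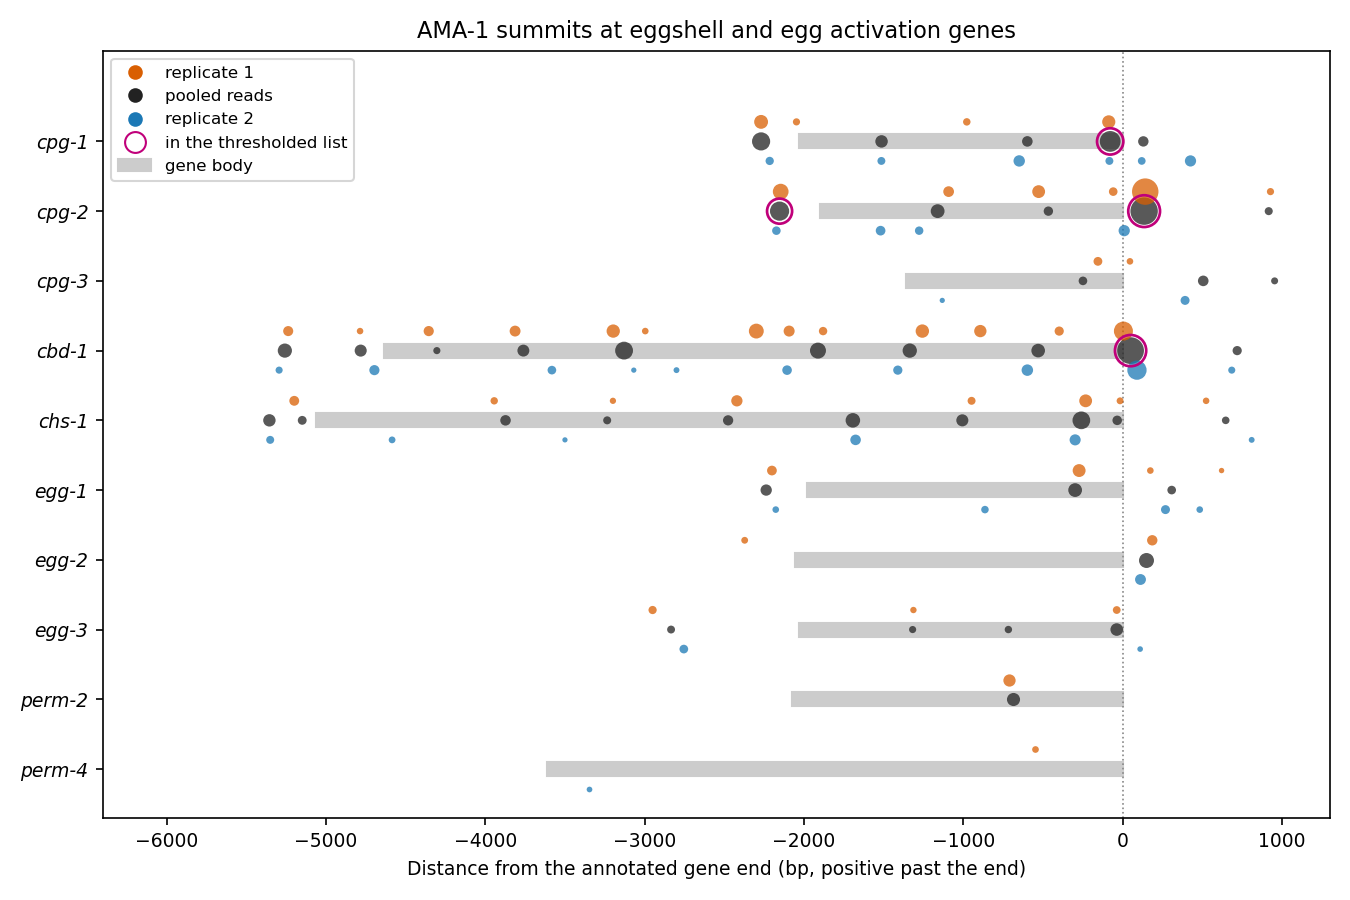
Summits at the 10 genes by distance from the annotated gene end in bp, with gene bodies as grey bars, replicate 1 above, pooled reads on the bar and replicate 2 below. The area of a point follows the signal within its list, and rings mark the 4 pooled summits of the thresholded list, 3 of them within 135 bp of a gene end.

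At gene ends, 7 of the 9 highest pooled summits lay within 500 bp, against 37.4% of all genes with a summit, and all 9 lay nearer the end than the start, against 55.6%. In the replicates the highest summit was nearer the end at 8 of 10 genes (replicate 1) and 7 of 9 (replicate 2), against 54.4% and 53.7% of all genes with a summit. At 8 of the 10 an oppositely oriented gene ended within 1000 bp of the end, against 35.2% of all genes. Inside a neighbouring gene lay 10 of the 42 summits, and the share for other genes was not computed. None of the 42 lay within 500 bp of a non-coding RNA gene, against 12.7% of nuclear pooled summits. The peaks had a median GC content of 38.8%, against 35.5% for all nuclear pooled peaks.

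Because the strongest pooled peaks lay at gene ends, the last 30 bases of the genes are shown. They are from the NCBI RefSeq genome WBcel235, 5′ to 3′ on the gene's strand, with the poly(A) signal AATAAA in capitals where it occurs. Among these 8 genes it is present at cpg-1, cbd-1 and perm-4, of which the first and second had a thresholded peak at the end and the third had no pooled summit.
cpg-1: catgcaactaaAATAAAatgcttgtgcctg
cpg-2: atattgagaaatgaaactgcctgactagaa
cbd-1: caactgttccaaAATAAAatgcaatcctgt
perm-2: cgtactttgaaccaaaaaaaatattcattt
perm-4: cacaacccAATAAAtatcttctcctgaaat
egg-1: ttattgcatgctgataaaacgtttcatgat
egg-2: attttcgatattgcatgccgataaaacatt
egg-3: agaatcgaaaatgaattattgtaaattttt
The hexamer AATAAA, searched on the sense strand only, is in the last 30 bases of 3 of the 10 genes and of 45.5% of all nuclear protein-coding genes. Its absence says only that these letters are not in this window.

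The chondroitin proteoglycans CPG-1 and CPG-2, which also bind chitin, form the layer under the chitin and act redundantly. The gene cpg-2 (WBGene00015102, chromosome III 7102092 to 7103990, minus strand) had the highest signal of the 10 genes, 57.6 in the pooled list at rank 88. Counting genes by their highest summit, it stood at place 99 of 19973. The summit at 7101957 lay 135 bp past the end of cpg-2. It also lay inside ZK418.11, an oppositely oriented gene, 92 bp before that gene's end, so the peak cannot be assigned to cpg-2 alone. In replicate 1 the matching summit had a signal of 53.6, rank 46, at 142 bp past the end. In replicate 2 it had 9.73, rank 1363, at 10 bp past the end. Both replicates had a summit there, but at different positions and ranks.

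Each of these 2 genes also had a peak before its start, and that of cpg-2 was in the thresholded list. It lay 255 bp before the start of cpg-2, at 7104245, with a signal of 28.2 (rank 687). The matching summits had 18.97 in replicate 1 (rank 866) and 5.61 in replicate 2 (rank 5734). No other annotated gene lay within 500 bp of it. Inside cpg-2, coding exon summits had 14.6 and 6.75 in the pooled list, and another, 917 bp past the end and inside ZK418.11, had 4.99. The cpg-1 gene (WBGene00000465, chromosome III 4489359 to 4491392, plus strand) had its own peak 236 bp before the start, at 4489123, with a pooled signal of 25.3 (rank 909, outside the 732). There replicate 1 had 14.75 (rank 1674, its highest at cpg-1) and replicate 2 had 5.26 (rank 6688). These are the only pooled peaks of the 10 genes before a start that rank in the first 1000, and 300 bases around the summit at cpg-1 are printed for that reason. Capitals mark the 11 bases centred on the summit.
cpg-1, chrIII:4488974-4489273, plus strand: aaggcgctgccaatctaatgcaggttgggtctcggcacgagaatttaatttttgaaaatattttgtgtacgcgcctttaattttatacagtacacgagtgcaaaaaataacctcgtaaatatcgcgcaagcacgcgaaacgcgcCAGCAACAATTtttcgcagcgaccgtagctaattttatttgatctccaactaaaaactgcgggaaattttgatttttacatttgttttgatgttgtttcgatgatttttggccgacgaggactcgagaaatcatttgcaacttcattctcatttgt
The stretch at cpg-1 has a GC content of 39%, with 32.7% T on the gene's strand.

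The highest peak of cpg-1 lay at its end, with a pooled signal of 33.1 at rank 451. Its summit, at 4491314, was in the 3' UTR, 78 bp before the annotated gene end and 52 bp past the end of a shorter transcript. This summit also lay 313 bp past the end of atf-7, an oppositely oriented transcription factor gene. The matching summits had 13.3 in replicate 1 (rank 2139) and 4.84 in replicate 2 (rank 7961). In replicate 2 the highest summit of cpg-1 lay instead in a coding exon 649 bp before the end, with 10.02 (rank 1256). Further pooled summits had 11.9 and 8.59 in coding exons and 8.35 at 130 bp past the end. The last of these lay 105 bp past the end of atf-7, whose end is 234 bp from that of cpg-1.

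CBD-1, a chitin-binding protein of the vitelline layer, holds that layer to the oocyte surface. Its gene (WBGene00010351, chromosome IV 11372991 to 11377627, plus strand) was the only one of the 10 with a peak among the 732 highest in each replicate. The summit at 11377677 lay 50 bp past the end, with a pooled signal of 55.0 (rank 104). Replicate 1 had 27.8 at 5 bp past the end (rank 298) and replicate 2 had 28.6 at 90 bp past the end (rank 60). These ranks were within the first 1% of both replicate lists. The nearest other gene end, of fbxb-76, was 494 bp from the summit. The 201 bases from the gene end to the edge of the peak overlap no annotated gene and are printed for that reason, with the 11 bases around the summit in capitals.
cbd-1, chrIV:11377628-11377828, plus strand: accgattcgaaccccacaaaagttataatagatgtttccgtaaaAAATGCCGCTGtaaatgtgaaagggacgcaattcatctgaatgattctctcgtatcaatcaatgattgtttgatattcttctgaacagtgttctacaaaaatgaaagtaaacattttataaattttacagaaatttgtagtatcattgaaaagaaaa
Its GC content is 30.3%, with 31.3% T and 38.3% A.

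The body of cbd-1, which has 10 exons, carried summits along its length. Of its 10 pooled summits, 6 were in coding exons, 2 before the start and 2 past the end. In order from the start, the coding exon summits had 3.90, 10.9, 24.5, 19.6, 15.7 and 14.2. The highest of them lay 1507 bp after the start, at rank 986. It had 13.6 in replicate 1 (rank 2046) but only 2.13 in replicate 2 (rank 25626). The summit 4106 bp after the start showed the other order, with rank 9555 in replicate 1 and 1209 in replicate 2. Before the start, the summits had 15.5 at 622 bp and 11.2 at 146 bp. The weaker summit past the end, at 719 bp and inside fbxb-76, had 6.51.

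PERM-2 and PERM-4 are proteins of the vitelline layer that depend on CBD-1, and their genes stand head to head on chromosome IV with 1682 bp between the starts. Neither had a peak in the thresholded list. At perm-2 (WBGene00016636, 1126790 to 1128865, plus strand) the single pooled summit, 687 bp before the end in an intron, had 13.2 (rank 4466). It was matched in replicate 1 (11.5, rank 3049), and replicate 2 listed no summit in the window. Of the 30-base words in this peak, 9.09% occur elsewhere in the genome. At perm-4 (WBGene00016638, 1121494 to 1125107, minus strand) the pooled list held no summit. Replicate 1 held a summit of 3.45 in an intron 549 bp before the end (rank 21164). The summit of replicate 2 had 2.49 in a coding exon 267 bp after the start (rank 22092), so the replicates had no summit in common there.

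CPG-3 is a further chondroitin proteoglycan of the eggshell. The highest of the 3 pooled summits at cpg-3 (WBGene00011063, chromosome I 7244937 to 7246295, plus strand) had 8.63 at rank 10441. It lay 506 bp past the end, inside R06C7.6 and 10 bp after the start of that gene. Replicate 2 had a match of 6.19 (rank 4518) and replicate 1 none. A summit in the 3' UTR, 249 bp before the end, had 5.72 and was matched only in replicate 1 (5.97, rank 10980). It lay 29 bp past the end of R06C7.6, and 10.9% of the 30-base words in this peak occur elsewhere in the genome. The annotated end of cpg-3 overlaps R06C7.6 by 221 bp, and the third summit, of 3.76 inside adsl-1, had no match in either replicate. The highest summit of cpg-3 ranked below the median of all genes with a summit in the pooled list (10441 against 6286) and in replicate 1 (10980 against 7124), and above it in replicate 2 (4518 against 7541).

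CHS-1 is the chitin synthase of the eggshell. Its gene (WBGene00000496, chromosome I 7554855 to 7559916, plus strand) had 10 pooled summits, none in the thresholded list. The highest, at 7559657, had 24.1 (rank 1021), with 12.6 in replicate 1 (rank 2445) and 9.44 in replicate 2 (rank 1469). It lay 259 bp before the annotated gene end, but 28 bp past the end of the shorter of its 2 annotated transcripts, and 182 bp before the start of T25G3.3, a gene on the same strand. The end of chs-1 and the start of T25G3.3 therefore cannot be told apart here. Next was a coding exon summit 3368 bp after the start with 16.2 (rank 2723), matched in replicate 2 (8.56, rank 1930) and not in replicate 1. The remaining 8 had 4.43 to 11.8. The strongest of these 8 lay 294 bp before the start of chs-1 and 8 bp past the end of T25G3.1. Only the highest of the 10 was matched in both replicates.

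EGG-1 and EGG-2 are paralogous membrane proteins of the oocyte with LDL-receptor repeats, required for fertilization. The genes share no 30-base word. Neither end, printed above, holds the hexamer. At egg-2 (WBGene00019811, chromosome III 7058527 to 7060583, minus strand) the only pooled summit had 17.25 (rank 2335) and lay 149 bp past the end. It was matched by 8.275 in replicate 1 (rank 6248) and 9.09 in replicate 2 (rank 1633), the highest summit of egg-2 in each. It also lay inside the oppositely oriented R01H2.2, 148 bp before its end, and 0 bp separate the annotated ends of these genes. At egg-1 (WBGene00015083, chromosome III 5728180 to 5730159, plus strand) the highest of 3 pooled summits had 14.5 (rank 3581), in a coding exon 298 bp before the end and 257 bp past the end of B0244.9, which is oppositely oriented. It was matched only in replicate 1 (12.8, rank 2368). Another, 308 bp past the end and inside B0244.9, had 5.74, with 3.36 in replicate 1 and 6.18 in replicate 2, where it was the highest of egg-1. A summit 258 bp before the start had 9.84 in the pooled list, with 7.29 and 3.37 in replicates 1 and 2.

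EGG-3, a protein related to tyrosine phosphatases but without their activity, holds CHS-1 and the kinase MBK-2 at the oocyte cortex until egg activation. At egg-3 (WBGene00009701, chromosome II 10882408 to 10884441, minus strand) the highest of 4 pooled summits had 12.2 (rank 5323) and lay in the 3' UTR 37 bp before the end. The matches had 4.645 in replicate 1 (rank 15448) and, 110 bp past the end, 2.425 in replicate 2 (rank 22702). It was 17 bp past the end of the oppositely oriented lurp-1, which overlaps egg-3 by 21 bp. In both replicates the highest summit of egg-3 lay before the start, inside F44F4.3, with 5.18 at 917 bp in replicate 1 and 5.81 at 721 bp in replicate 2. The remaining pooled summits had 3.91 to 4.80.

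**Figure D2:**
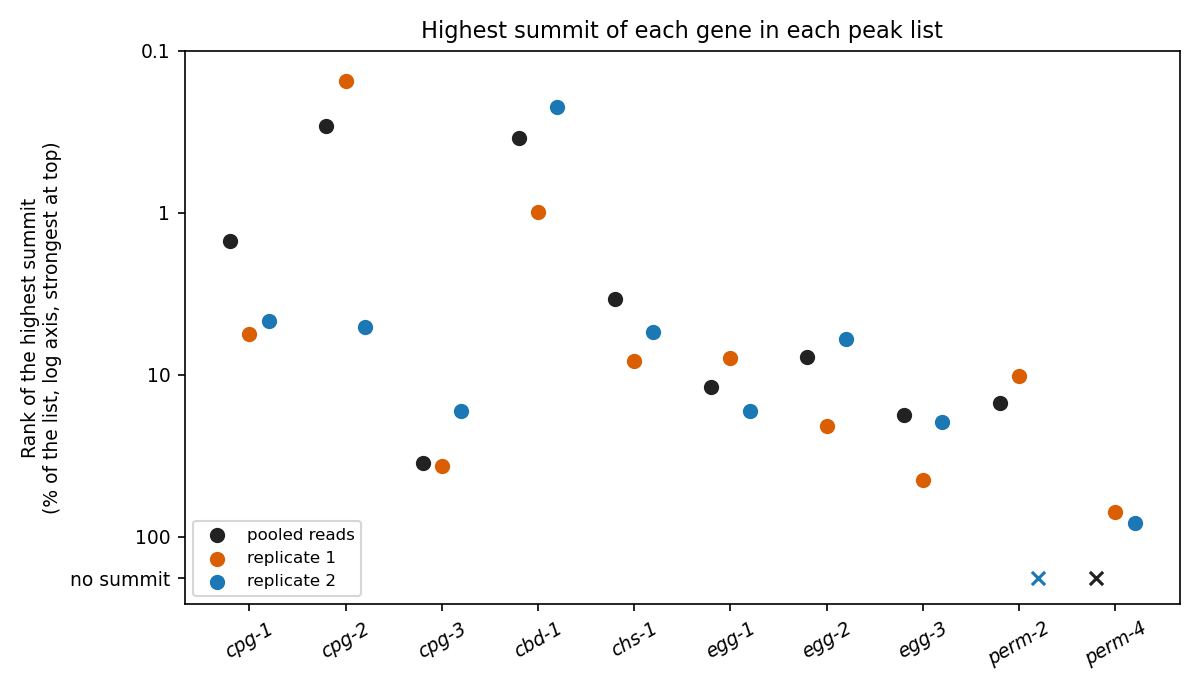
Rank of the highest summit of each gene as a percent of each list, on a log axis with the strongest at the top, for pooled reads, replicate 1 and replicate 2. Crosses mark lists with no summit, which are the pooled list at perm-4 and replicate 2 at perm-2, and cbd-1 is within the first 1% of all 3 lists.

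Part of the summits recurred in both replicates. Of the 42 pooled summits, 17 (40.5%) had a summit within 150 bp in both replicates, against 19.4% of all pooled summits, 16 in replicate 1 only, 7 in replicate 2 only and 2 in neither. By gene, 7 of the 10 had a pooled summit matched in both, against 26.5% of all genes. The pooled list comes from the same reads, so such a match is not independent. The 3 genes without one were cpg-3, perm-2 and perm-4. The order of the genes differed between the replicates, with cpg-2 first and cbd-1 second in replicate 1, and cbd-1 first and cpg-1 second in replicate 2.

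Along the genes, the last part of the body held the most pooled summits. With each body cut into 5 equal parts, the last part had 8 summits, or 1.5 per kb, against 0.407 per kb over all genes. The 500 bp before the start held 6 (1.2 per kb, against 0.455) and the 500 bp past the end 5 (1 per kb, against 0.555). The first part of the body held 2 (0.374 per kb, against 0.359). Parts 2 and 4 of the body held 6 each (1.12 per kb, against 0.309 and 0.292). Part 3 held 2 (0.374 per kb, against 0.297). The longest genes, cbd-1 and chs-1, supplied all summits of parts 1 and 3 and some of those in each other part of the body. From 500 to 1000 bp past the end there were 5 (1 per kb, against 0.338), each inside a neighbouring gene. As far before the start there were 2 (0.4, against 0.346). The density was also higher in parts 2 and 4 of the body, and so was not confined to the gene end. In replicate 1 the last part of the body was again the fullest, with 11 summits (2.06 per kb, against 0.399). In replicate 2 it held 3 (0.561 per kb, against 0.363), and the 500 bp past the end held 9 (1.8 per kb, against 0.486). The replicates therefore differed in where the summits around the end fell.

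**Figure D3:**
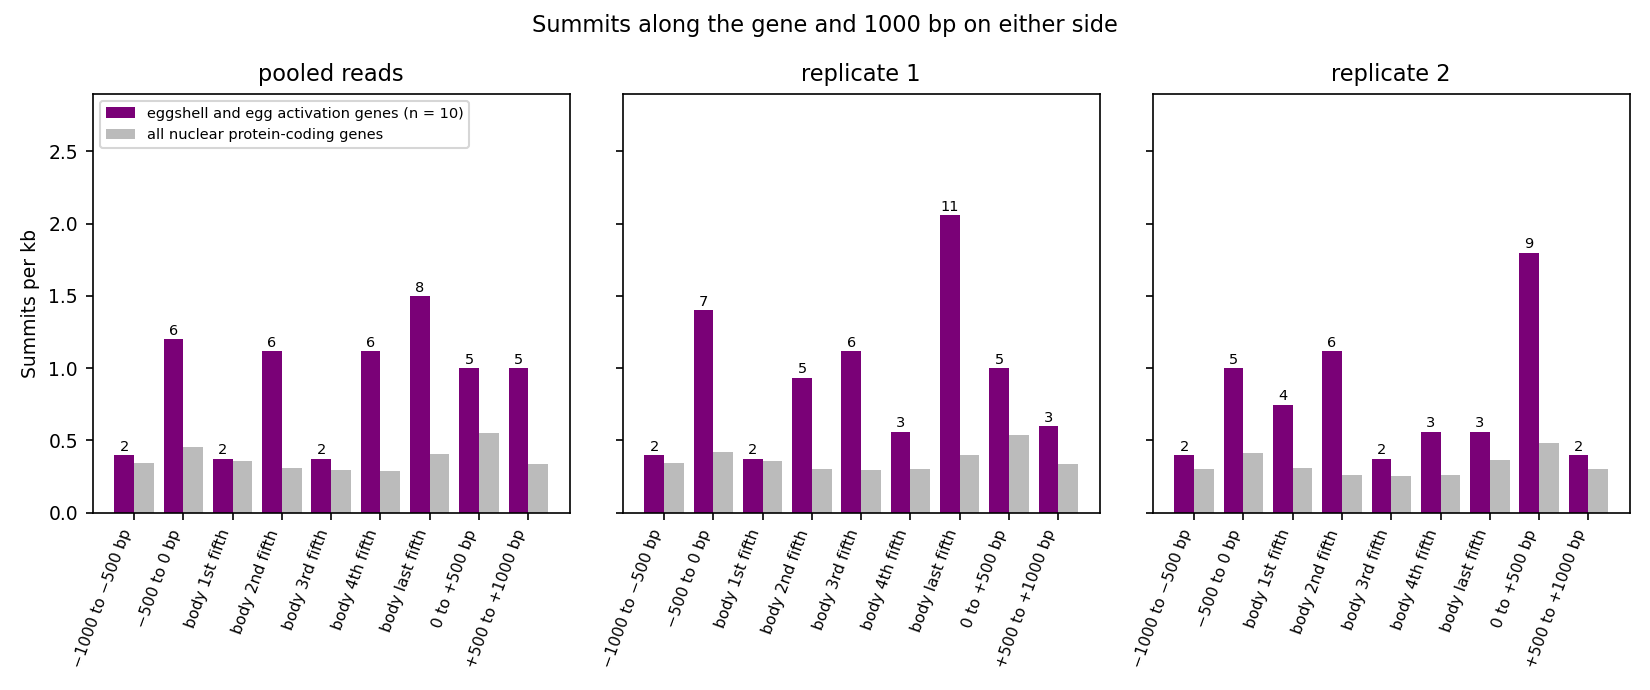
Summits per kb in 9 bins from 1000 bp before the gene start to 1000 bp past its end, for the 10 eggshell and egg activation genes (purple, with the number of summits above each bar) and all nuclear protein-coding genes (grey), in each list. The tallest purple bar is the last part of the body in the pooled list and in replicate 1, and the 500 bp past the end in replicate 2.

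A wider list of 36 genes was drawn up for the eggshell pathway, with earlier results of these data known. By symbol, 35 were found in the annotation, and 8 of them had a thresholded summit, against 5.20% of all genes. A pooled summit was present at 33 of the 35, against 56.4% of all genes. The highest one had a median rank of 2781, against 6286 over all genes with a summit. Gene length was not compared for this list, and mbk-2 and pod-1 held 22 and 11 pooled summits. For amino sugar and chitin synthesis 1 of 5 had a thresholded summit, against the 5.20% of all genes. This was gfat-2, which makes glucosamine 6-phosphate, with 30.8 at 40 bp past its end and within 500 bp past the end of F22B3.10. For chondroitin 1 of 13 did, near the share of all genes. This was sqv-5, the chondroitin synthase gene, with 47.2 at 31 bp past its end. Its highest signal was 25.6 in replicate 1 and 16.7 in replicate 2. The pooled summit lay inside the neighbouring T24D1.2.

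The egg activation and cortical granule genes had 4 of 7 with a thresholded summit, against 5.20% of all genes. At rab-11.1 and rab-6.1, both small GTPases of vesicle traffic, the summits were 96 and 36 bp before the end, with 43.5 and 34.7. The summit of rab-6.1 was also within 500 bp past the end of zif-1. At mbk-2, the kinase that EGG-3 holds at the cortex, the summit was 436 bp before the end with 32.1, within 500 bp past the end of F49E11.2. The highest of the list, 75.3 (rank 48) at egg-5, lay 866 bp before the start of egg-5, inside R12E2.11 and within 500 bp of sls-2.4, a spliced leader RNA gene. The peak is thus beside a neighbour. The only pooled summit of egg-4, a paralogue that like egg-5 encodes a partner of EGG-3, had 7.64. This summit too lay in a neighbour, T21E3.2, 984 bp before the start of egg-4. Of the permeability barrier genes, 2 of 10 had a thresholded summit, again against 5.20% of all genes. These were cyp-31A2, a cytochrome P450, with 32.7 at 196 bp past the end, and pod-1, a coronin-like gene, with 27.5 at 1707 bp before the end. In the peak of cyp-31A2, 12.7% of 30-base words occur elsewhere in the genome, and the summit lay within 500 bp past the end of the histone gene his-63.

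Genes marking tissues of the worm were read in the same way. Of 5 oocyte genes 5 had a pooled summit and 2 a thresholded one, rme-2, the yolk receptor (40.5), and puf-5, an RNA-binding protein (47). A pooled summit was found at 4 of 5 intestine, 1 of 5 body muscle, 4 of 5 neuron and 2 of 5 hypodermis genes, and none of these 20 had a thresholded one. Over all genes the shares are 56.4% and 5.20%, so 0 of 20 is near the background, and the difference from the oocyte genes was not tested. Of the 20, elt-2, vit-2, tnt-2, dpy-7 and col-19 are on the X chromosome, and no oocyte gene is. Tissue and chromosome are therefore mixed in these lists. The ranks of the highest pooled summits also overlapped. The neuron gene snb-1 (rank 939) stood above lin-41 (985), oma-2 (1216) and oma-1 (1785) of the oocyte genes, and below puf-5 (173) and rme-2 (264). The highest summit at the body muscle gene with a summit, unc-22, lay within 500 bp of a tRNA gene. The part of cell type in the values of the eggshell genes was not tested.

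**Figure D4:**
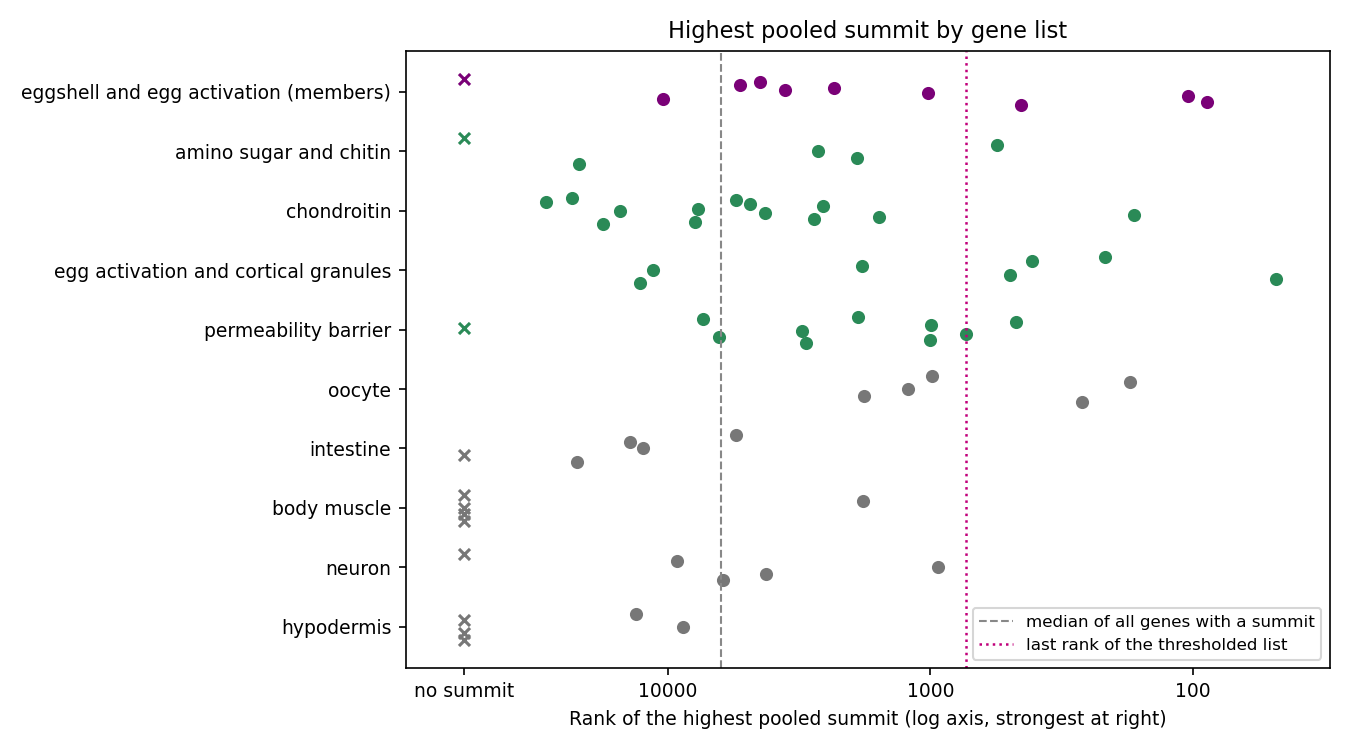
Rank of the highest pooled summit of each gene on a log axis with the strongest at the right, for the 10 eggshell and egg activation genes (purple), other pathway genes (green) and tissue genes (grey). Crosses mark genes with no pooled summit, the dotted line is rank 732, and the dashed line is the median of all genes with a summit, 6286.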

How the data were processed

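The authors deposited ChIP-seq peak lists for 2 replicates and for their pooled reads, called against a control, and a thresholded list, per the labels and the lists of files. The signal of each peak and the −log10 of its q-value are the authors' values as deposited, in the narrowPeak columns. No source used here names their scaling, the aligner or the caller. Lists on ce10 were not used here. Positions are 1-based on ce11, the assembly named WBcel235, and genes are from Ensembl release 115. Chromosome lengths of the reference genome exceed or equal every peak end.

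A summit was counted for each gene whose body or 1000 bp flanks held it, and replicate summits within 150 bp of a pooled one were taken as matches. Ranks run from the highest signal. Sequences of all chromosomes were read from the NCBI genome of the same assembly, and those of chromosome I are counted but not printed. Repeated 30-base words were counted on both strands. Work used Python 3.11.15, pandas 2.3.3, numpy 2.4.6 and matplotlib 3.10.9, and placement of summits was tested on simulated data. Every member is named with all its pooled summits or their range, as are the pathway genes with a thresholded summit, which include the highest of each subgroup. Genes and lists were chosen with earlier results of these data known. No test was run, since there is 1 group. Whether the replicates came from separate cultures is not stated beyond the label of biological replicate.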

Additional observations from a re-analysis of the deposited data

How the results depend on the processing

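The values were recomputed with flanks of 250, 500 and 2000 bp, the gene body alone, each summit given to the nearest gene body only, the 15000 highest pooled or 366 highest thresholded peaks, each replicate alone (its 732 highest peaks in place of the thresholded list, and no value for matches, which need both), and matches within 75 or 300 bp or by overlap of 1 bp. The number of genes with a pooled summit (8 to 10), with the highest one nearer the end (6 to 9) and with a match in both replicates (5 to 7) stayed within 1.5 times the reported count in each. Pooled summits per gene, 4.2 as reported, were 3.5, 3.1 and 5 with flanks of 500, 250 and 2000 bp, 2.4 in the body alone, 3 by nearest body and 2.9 among the 15000, and 3.6 to 4.4 in single replicates. Genes with a thresholded summit, 3 as reported, were 1 in the body alone (cpg-1) and 1 to 2 in single replicates, where without replicate 1 cbd-1 was left and without replicate 2 cbd-1 and cpg-2. The median rank of 2335 became 3544.5 in the body alone and 1633 to 2747 in single replicates. The 8 other pathway genes became 4 in the body alone, 5 by nearest body, 3 among the 366 and 6 to 9 in single replicates. Body-alone and higher-signal settings hold fewer summits by construction, and no other cause was tested. No paired analysis was possible because there is 1 group. With no read counts, what depth limits is unknown.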
